A study of Homo sapiens with 28 samples.

Results

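The 500 largest domains of H3K27 acetylation (H3K27ac) in senescent IMR-90 ER:Ras fibroblasts were described across 28 CUT&RUN libraries. The domains were built from the H3K27ac peak lists of senescent (Sen) replicates 1 and 2. Peaks on chromosomes 1 to 22 and X that overlapped by at least 1 bp were joined, and the 45257 joined regions with a peak in both lists were kept. Regions no more than 12.5 kb apart were then strung together into 28222 stitches, and the stitches were ranked by the summed length of their regions. The 500 with the largest sums are called domains here. They were thus chosen by the H3K27ac values of Sen replicates 1 and 2, and every H3K27ac value from these lists is a description.

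H3K27ac marks active enhancers and promoters, and p300 and CBP are the acetyltransferases that deposit it. Long clusters of acetylated elements, often called super-enhancers or stretch enhancers, are commonly found near genes that characterise a cell type, such as matrix and cytoskeletal genes in fibroblasts. FOXF1 and FOXF2 are forkhead transcription factors of lung and gut mesenchyme. AP-1 is a dimer of JUN and FOS family proteins that is known to open enhancers in senescent fibroblasts, and c-JUN is phosphorylated on its activation domain when it is activated.

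IMR-90 is a human lung fibroblast line, and ER:Ras is a Ras oncoprotein fused to an oestrogen receptor domain, so that 4-hydroxytamoxifen turns it on and the cells enter senescence. Per the labels' protocols, senescence was induced by 100 nM 4-hydroxytamoxifen over 6 days and small interfering RNAs (siRNAs) were transfected. H3K27ac libraries came from Sen cells with an siRNA mixture tagged for cJUN, JUNB and JUND (titled for cJUN and JUND only, JUN knockdown below, n = 2), from Sen replicates 3 and 4, from sip300/CBP Sen cells (n = 2) and a Sen control of their own (n = 2), from siFOXF1/2 Sen cells (n = 2), from Sen replicates 1 and 2, and from proliferating (Pro) cells (n = 2). FOXF1 libraries came from JUN knockdown, siFOXF1/2, Sen and Pro cells, and phosphorylated c-JUN (p-c-JUN) libraries from siFOXF1/2, Sen and Pro cells, with 2 libraries each. All Sen and Pro libraries carried the control siRNA (siCtrl) in their tags. The tags of the Pro libraries also named 4-hydroxytamoxifen and a senescent cell type, so the groups follow the sample titles. The 6 libraries of JUN knockdown cells and Sen replicates 3 and 4 were of a second deposit.

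The files were lists of called peaks, 1 per library, with no read counts, so depth is unknown and list length stands in for it only loosely. The H3K27ac lists held 1549 to 89329 peaks, the FOXF1 lists 133 to 40537 and the p-c-JUN lists 24808 to 93443. The lists of the sip300/CBP experiment (at most 8234 peaks) and the FOXF1 lists after siFOXF1/2 and JUN knockdown (at most 883) were far shorter than the others. A longer list covers more of any domain, so each library's cover in the domains was given as a share of its own list. With 2 libraries against 2 an exact permutation test has 6 arrangements and cannot give a p below 0.333. The p-values rank the observed split among these arrangements and do not measure how far libraries vary. Nothing says that replicates were separate cultures, so the variation between libraries may be technical only. A peak list does not tell apart a mark carried by fewer cells from a weaker mark in all of them.

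The domains were clusters of many acetylated regions rather than single broad peaks. Their summed length ran from 5086 to 16876 bp, with a median of 6233 bp, inside spans of 13743 to 112980 bp with a median of 37430 bp. They held 3 to 17 regions each, with a median of 6, and 3172 of all 45257 regions (7.01%). In bases they held 7.91% of the acetylated sequence of Sen cells. A median of 17.1% of a domain's span was acetylated. The widest region of a domain had a median length of 1824.5 bp and made up a median of 27.6% of the sum, and it reached at least 50% of the sum in 13 domains. By contrast 64.8% of all stitches consisted of 1 region.

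Chromosome 2 held most domains, 64 of its 2501 stitches, followed by chromosome 1 with 43 of 2581 and chromosome 5 with 40 of 1696. Chromosome X had none among 572 stitches. The domains lay near each other in places, with 169 of the 500 (33.8%) within 500 kb of another. Which genes lie in or beside the domains was not analysed here, since no annotation of build hg19 was used, and domains are named by rank and hg19 position, counted from 1.

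The size curve had no step at rank 500. The last 3 domains had sums of 5092, 5087 and 5086 bp, and the first 3 stitches outside had 5083, 5078 and 5076 bp. The next 500 stitches by rank, used below as the nearest comparison, had sums of 4124 to 5083 bp and 2 to 8 regions each.

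**Figure D1:**
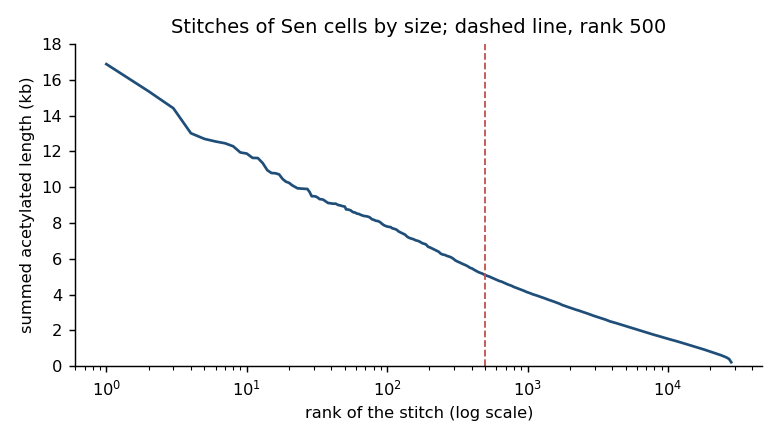
Summed acetylated length in kb (vertical axis) of the 28222 stitches of Sen cells against their rank on a log scale. The curve starts at 16.9 kb and passes 5.09 kb at rank 500 (dashed line) without a break.

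The 10 largest domains were acetylated in Pro cells as well. The largest lay on chromosome 21 at 30487132 to 30588782 and had 14 regions. Its cover by H3K27ac peaks was 14.2 and 11.3 kb in siFOXF1/2 libraries, 17.1 and 12.3 kb in Sen replicates 1 and 2, and 13.6 and 14.5 kb in Pro libraries. Its Sen and Pro values overlapped. The second lay on chromosome 8 at 19027663 to 19125329, with 14 regions. Its cover was 12.8 and 9.45 kb in siFOXF1/2 libraries, 16.3 and 12.1 kb in Sen replicates 1 and 2, and 10.4 and 11.1 kb in Pro libraries, so that both Sen values were above both Pro values. The third, on chromosome 2 at 102643227 to 102745175, had the most regions of any domain, 17. Its cover was 11.4 and 10.0 kb in siFOXF1/2 libraries, 13.1 and 8.96 kb in Sen replicates 1 and 2, and 14.0 and 15.2 kb in Pro libraries, both Pro values being above both Sen values.

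The next 7 spanned 60137 to 112980 bp. Rank 4 lay on chromosome 1 at 95178872 to 95267788, rank 5 on chromosome 5 at 172273714 to 172386693, rank 6 on chromosome 2 at 238143921 to 238225197 and rank 7 on chromosome 9 at 27109013 to 27180148. Rank 8 lay on chromosome 1 at 39595068 to 39672019, rank 9 on chromosome 15 at 71056669 to 71126915 and rank 10 on chromosome 2 at 190117911 to 190178047. The rank 5 domain was the widest of the 500 in span. It was also the stitch with the largest sum when the same rule was applied to Sen replicates 3 and 4, where its cover was 7.59 and 7.04 kb. JUN knockdown libraries covered it by 12.8 and 3.50 kb. In the rank 7 domain, the cover of both siFOXF1/2 libraries was below that of the Sen and Pro libraries beside them, with 6.59 and 7.57 kb, against 11.2 and 9.08 kb in Sen replicates 1 and 2 and 9.58 and 9.25 kb in Pro libraries. It came at rank 1722 among the stitches of siFOXF1/2 libraries and 1067 among those of Pro libraries, but at 162 in JUN knockdown libraries and 250 in Sen replicates 3 and 4.

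**Figure D2:**
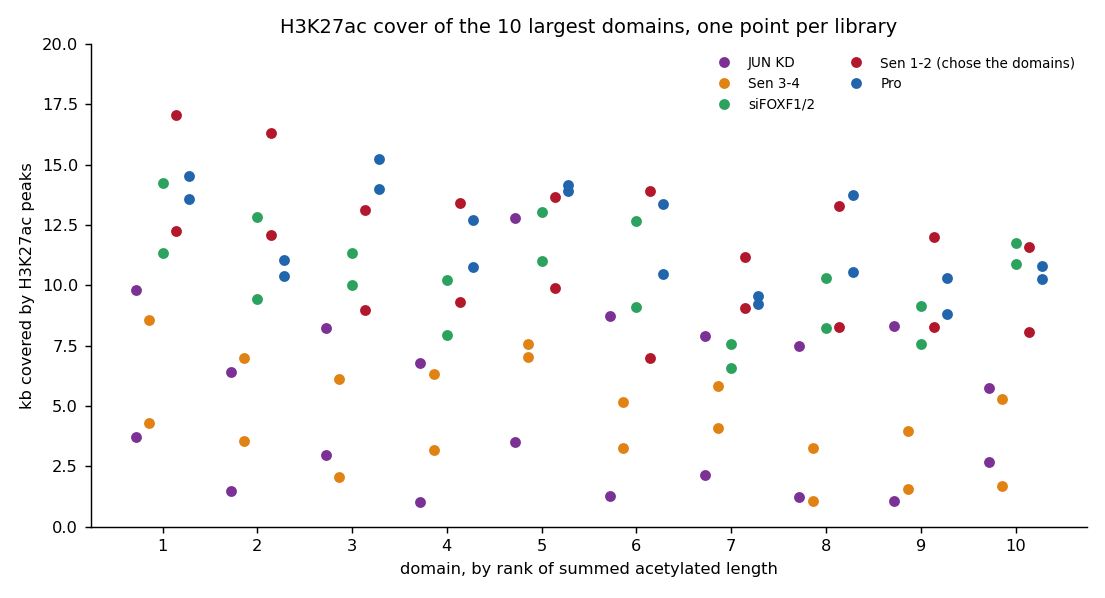
Length in kb covered by H3K27ac peaks (vertical axis) in each of the 10 largest domains (horizontal axis, by rank), with 1 point per library for JUN knockdown (JUN KD), Sen 3-4, siFOXF1/2, Sen 1-2 and Pro libraries. The second JUN KD library and both Sen 3-4 libraries, whose lists held at most 48859 peaks, lie below all siFOXF1/2, Sen 1-2 and Pro libraries in these 10 domains, while the first JUN KD library reaches into their range at ranks 5, 6, 7 and 9.

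The same rule was applied to every other pair of long H3K27ac lists to see whether the largest domains were shared. Of the 500 Sen domains, 247 (49.4%) overlapped 245 (49.0%) of the 500 largest stitches of siFOXF1/2 libraries. In Pro libraries the counterparts were 194 Sen domains (38.8%) and 190 stitches (38.0%). For Sen replicates 3 and 4 they were 112 (22.4%) and 112 (22.4%), and for JUN knockdown libraries 109 (21.8%) and 111 (22.2%), both of the second deposit. Of the 10 largest Sen domains, 9 were among the 500 largest of siFOXF1/2 libraries and 9 among those of Pro libraries, but 4 among those of JUN knockdown and 4 among those of Sen replicates 3 and 4. The overlap was thus smaller with the later pair of Sen libraries than with Pro libraries. Deposit and list length moved with this difference, and their part in it was not tested. No domain was without a stitch in siFOXF1/2 or Pro libraries, while 44 had none in JUN knockdown libraries and 28 none in Sen replicates 3 and 4.

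Most acetylated regions within the domains were already acetylated in proliferating cells. Of the 3172 regions, 2496 (78.7%) overlapped a peak in both Pro lists, 320 (10.1%) a peak in 1 Pro list and 356 (11.2%) a peak in neither. These 356 were spread over 229 domains (45.8%). In 13 domains they made up at least 50% of the regions, and in no domain all of them. Among regions of the next 500 stitches 11.1% had no Pro peak, near the 11.2% in domains, and of stitches ranked beyond 1000 13.5%. The counts of 229 and 13 domains were not set beside other stitches, which held fewer regions by median. The domain with the largest part of its acetylated bases in regions without a Pro peak was the one at rank 500, with 61.5%, followed by rank 246 on chromosome 2 at 182802059 to 182850403 with 55.6% and rank 310 on chromosome 20 at 6472723 to 6515329 with 51.5%. These 3 were chosen after their values were seen.

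Regions without a Pro peak were narrower, and smaller shares of them held the factors. Their median width was 607 bp, against 1065.5 bp for regions with a peak in both Pro lists. Of these 356 regions, 28.4% held p-c-JUN in Sen cells (a region with a peak in both p-c-JUN Sen lists), against 65.9% of those with a peak in both Pro lists, and 6.46% held FOXF1, against 26.2%. A p-c-JUN region with no peak in either Pro p-c-JUN list, called gained, overlapped 21.9% of them, against 16.7%. Outside the domains, in stitches ranked beyond 1000, p-c-JUN was held by 38.0% of the regions without a Pro peak and 62.1% of those with a peak in both Pro lists, the same order.

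Smaller shares of the regions without a Pro peak were also found in other libraries. Both siFOXF1/2 lists held a peak at 37.4% of them and neither did at 40.4%, against 88.2% and 3.61% of the regions with a peak in both Pro lists. Both Sen lists of the second deposit held a peak at 11.8% of them, against 44.9%. For the siFOXF1/2 lists the split was much the same outside the domains, with 32.0% and 42.9% against 83.6% and 4.87% in stitches beyond rank 1000. Neither JUN knockdown list held a peak at 76.7% of them, against 15.7%, while neither list of Sen replicates 3 and 4 did at 60.7%, against 23.4%. In stitches beyond rank 1000 these shares were 72.3%, against 17.7%, for JUN knockdown and 63.0%, against 26.3%, for Sen replicates 3 and 4. The shares with a peak were lower for every pair compared, Sen libraries included. These regions were the narrower ones, and the part of width in the shares was not tested.

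**Figure D3:**
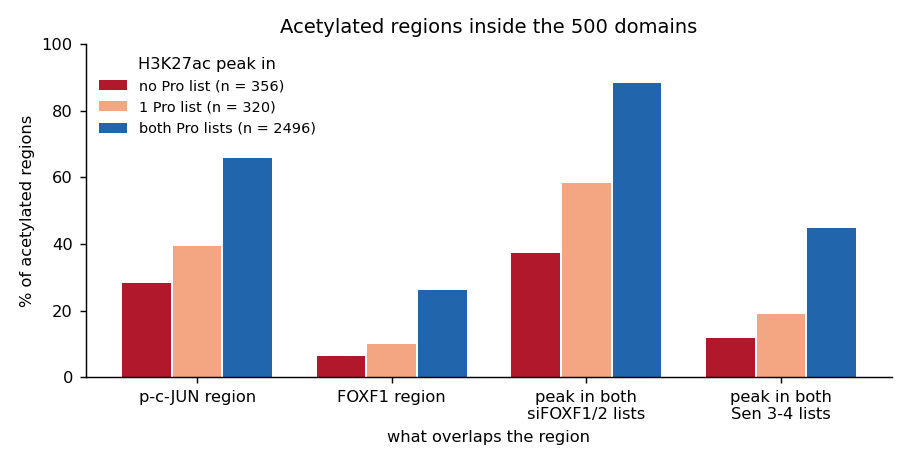
Share of acetylated regions in the domains (vertical axis, %) that held p-c-JUN or FOXF1 in Sen cells or a peak in both siFOXF1/2 or both Sen 3-4 H3K27ac lists, split by the number of Pro lists with a peak (none, 1, both). Every share is lowest for the 356 regions without a Pro peak and highest for the 2496 with a peak in both Pro lists.

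Between Sen and Pro cells, the share of each H3K27ac list that fell in the domains was 6.06% and 7.11% in Sen replicates 1 and 2, against 4.78% and 4.74% in Pro libraries, a difference of 1.83 ± 0.528 percentage points (SE, n = 2 and 2). This description follows from the choice of the domains, as does the count of 112 domains whose cover was higher in both Sen than in both Pro libraries and 41 where it was lower, beside 31.7% and 9.24% of all stitches. On the scale of list shares the counts were 393 (78.6%) and 6 (1.2%), beside 64.1% and 2.11% of all stitches and 73% and 2.6% of the next 500. Sen replicates 3 and 4, which the rule did not use, also gave a larger share than Pro libraries, 6.08% and 6.31% against 4.78% and 4.74%. The means were 6.20 ± 0.168% and 4.76 ± 0.0305% (SD, n = 2 each), and the difference of 1.44 ± 0.120 points (SE) had an exact two-sided permutation p of 0.333, the smallest possible. The 4 values did not overlap. With lists cut to equal length the difference was 0.209 points. Deposit and condition cannot be told apart in this comparison.

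The larger share extended to all stitches, which were built from Sen lists and leave out sites found only in Pro cells. A larger share in other Sen libraries can follow from this rule, and the test does not tell it apart. Sen replicates 3 and 4 had 71.2% and 78.2% of their cover in any Sen stitch, against 54.7% and 53.8% for Pro libraries. Within that part, the domains took 8.53% and 8.07% of the cover in Sen replicates 3 and 4, against 8.73% and 8.81% in Pro libraries, so the difference turned to −0.467 points (exact two-sided permutation p = 0.333). This second measure, the share of stitch cover, was chosen after the data had been seen. As deposited, cover was higher in Sen replicates 3 and 4 in 1 domain (0.2%) and lower in 450 (90.0%), beside 3.18% and 68.3% of all stitches with a peak and 0.2% and 87.2% of the next 500. These lists were the shorter ones. Relative to each list it was higher in 262 domains (52.4%) and lower in 79 (15.8%), beside 36.7% and 25% of all such stitches and 54.4% and 18% of the next 500 stitches.

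The single domain with more cover in both libraries of Sen replicates 3 and 4 than in both Pro libraries was the last one, rank 500, on chromosome 1 at 66860876 to 66881997. Its cover was 1.21 and 1.77 kb in siFOXF1/2 libraries, 2.10 and 0.869 kb in Sen replicates 3 and 4, 4.94 and 4.38 kb in Sen replicates 1 and 2, and 0.463 and 0.769 kb in Pro libraries. All 4 Sen values lay above both Pro values. It also had the widest gap, in percent of a domain's acetylated bases, of all 500 between Sen replicates 1 and 2 and Pro libraries and between siFOXF1/2 and Sen libraries. JUN knockdown libraries covered it by 3.83 and 2.33 kb, more than Sen replicates 3 and 4. It held 1 FOXF1 region and 3 p-c-JUN regions of Sen cells, of which 1 and 2 had no peak in the Pro lists of the same antibody.

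The other named domains with higher cover in Sen replicates 1 and 2 were rank 145 on chromosome 7 at 133859134 to 133899158, with 6.52 and 6.09 kb against 2.91 and 2.47 kb in Pro libraries, rank 299 on chromosome 12, rank 438 on chromosome 12 and rank 310. The domains that went furthest the other way were led by rank 434 on chromosome 6 at 148821833 to 148860116. Its cover was 1.46 and 0.427 kb in Sen replicates 3 and 4, 5.77 and 3.47 kb in Sen replicates 1 and 2, and 7.70 and 7.82 kb in Pro libraries. Both pairs of Sen libraries were below both Pro libraries there, and it held 7 p-c-JUN regions of Sen cells, 3 of them gained. A large acetylated domain of Sen cells could thus be more widely acetylated in Pro cells.

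After knockdown of FOXF1 and FOXF2, the domains kept a share of the H3K27ac lists between those of Sen and Pro cells. The share was 5.29% and 5.68% in siFOXF1/2 libraries, against 6.06% and 7.11% in Sen replicates 1 and 2, a difference of −1.10 ± 0.562 points (SE, n = 2 and 2) that has no test because the Sen lists chose the domains. Set against Pro libraries it was larger, with means of 5.49 ± 0.273% and 4.76 ± 0.0305% (SD, n = 2 each). This difference of 0.731 ± 0.194 points (SE) had an exact two-sided permutation p of 0.333, the smallest possible, and the values did not overlap. Domains built from Sen lists leave out sites found only in Pro cells, which can lower the Pro share, and the test does not allow for this. As a share of stitch cover the domains took 9.05% and 8.88% in siFOXF1/2 libraries, 8.36% and 8.01% in Sen replicates 1 and 2, and 8.73% and 8.81% in Pro libraries, which put siFOXF1/2 above both.

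By domain, as deposited, cover was higher in both siFOXF1/2 than in both Sen libraries in 13 domains (2.6%) and lower in 72 (14.4%), beside 5.34% and 31.4% of all stitches and 4.8% and 20% of the next 500 stitches. Relative to each list the counts were 19 (3.8%) and 239 (47.8%), beside 4.09% and 43.2% of all stitches and 4% and 51% of the next 500. The highest gap upward was at rank 107 on chromosome 2 at 216592451 to 216659293, which was the largest stitch of all in siFOXF1/2 libraries. Its cover was 9.96 and 9.16 kb in siFOXF1/2 libraries, 7.76 and 5.30 kb in Sen replicates 1 and 2, and 6.87 and 8.48 kb in Pro libraries. Both siFOXF1/2 values lay above all others. Downward, rank 500 was followed by rank 427 on chromosome 7 at 78713077 to 78726819, with 2.55 and 1.74 kb in siFOXF1/2 against 4.69 and 4.02 kb in Sen libraries, rank 217 on chromosome 3 at 99782546 to 99808216, with 2.73 and 2.06 kb against 6.44 and 4.32 kb, rank 129 on chromosome 3 and rank 438. These 5 held 0 to 2 FOXF1 regions and 3 to 5 p-c-JUN regions of Sen cells each.

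Against Pro cells, cover as deposited was higher in siFOXF1/2 libraries in 110 domains (22.0%) and lower in 123 (24.6%), beside 20.2% and 27.1% of all stitches with a peak and 20.8% and 28% of the next 500, shares near the domains' own. Scaled to each list it was higher in 270 (54.0%) and lower in 63 (12.6%), beside 36.4% and 16.8% of all and 46.8% and 14.4% of the next 500 stitches. The widest gap upward was at rank 310 on chromosome 20, with 4.89 and 5.38 kb in siFOXF1/2 libraries, 5.75 and 4.56 kb in Sen replicates 1 and 2, and 2.15 and 2.06 kb in Pro libraries. The acetylation of this domain in Sen cells was present after siFOXF1/2 too, and it held 2 FOXF1 regions of Sen cells. Neither siFOXF1/2 FOXF1 list had a peak in it, but those short lists had only 0 and 1 peaks in all 500 domains. The part of FOXF1 in the acetylation of this domain was not tested. Next came rank 489 on chromosome 4 at 169353575 to 169373761, with 4.76 and 4.603 kb in siFOXF1/2 against 2.50 and 1.78 kb in Pro libraries, and rank 123 on chromosome 10 at 127738100 to 127785510, with 5.83 and 7.25 kb against 2.87 and 2.57 kb. Downward the gap was widest at rank 138 on chromosome 2 at 47400389 to 47454237, with 5.59 and 4.49 kb in siFOXF1/2 against 8.24 and 8.83 kb in Pro libraries.

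The ratio between siFOXF1/2 and Sen cells shifted less with the FOXF1 content of a domain than with its p-c-JUN content. The domains were sorted by the number of FOXF1 regions of Sen cells they held, and the ratio of mean list shares, siFOXF1/2 over Sen, was 0.858 for the 87 domains with none, 0.833 for the 180 with 1, 0.827 for the 201 with 2 or 3 and 0.819 for the 32 with 4 or more. Sorted by p-c-JUN regions it was 0.774 for the 58 domains with up to 2, 0.819 for 205 with 3 or 4, 0.854 for 198 with 5 to 7 and 0.861 for 39 with 8 or more. The ratio thus went down from bin to bin with FOXF1 content and up with p-c-JUN content. Without Sen replicate 1 the ratios by FOXF1 content were 0.794, 0.766, 0.767 and 0.775, with no fall past the second bin. Without the second siFOXF1/2 library they were 0.825, 0.802, 0.798 and 0.802. They fell from bin to bin when either of the other libraries was left out. By p-c-JUN content the lowest bin had the lowest ratio whichever library was left out. Without the first siFOXF1/2 library the ratios by p-c-JUN content were 0.799, 0.852, 0.883 and 0.883, with no rise past the third bin. Without Sen replicate 1 they were 0.705, 0.754, 0.798 and 0.798. These ratios use the Sen lists that chose the domains and carry no test.

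In JUN knockdown cells the domains took a smaller share of the H3K27ac lists than in Sen replicates 3 and 4, the Sen libraries of the same deposit. The share was 4.55% and 4.66% in JUN knockdown libraries, against 6.08% and 6.31% in Sen replicates 3 and 4. The difference of −1.59 ± 0.130 points (SE, n = 2 and 2) was larger than the spread within either group, and its exact two-sided permutation p was 0.333, the smallest possible. The smaller share held for all Sen stitches: they took 53.6% and 62.7% of the cover in JUN knockdown libraries, against 71.2% and 78.2% in Sen replicates 3 and 4, and the next 500 stitches took 3.07% and 3.51%, against 4.13% and 4.66%. Of the cover inside stitches, the domains took 8.48% and 7.43% in JUN knockdown libraries, against 8.53% and 8.07% in Sen replicates 3 and 4, ranges that overlap.

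As deposited, cover was higher in JUN knockdown libraries in 24 domains (4.8%) and lower in 7 (1.4%), beside 13.6% and 8.37% of all stitches with a peak and 5.6% and 5.2% of the next 500. Relative to each list it was higher in 33 (6.6%) and lower in 229 (45.8%), beside 9.54% and 24.3% of all and 8% and 40.4% of the next 500 stitches, so the share lower was near that of the next largest stitches. The 2 JUN knockdown lists differed greatly, with a median cover per domain of 3.75 and 1.17 kb, against 3.01 and 1.44 kb in Sen replicates 3 and 4. The widest gap upward was at rank 97 on chromosome 15 at 90931204 to 90963958, with 3.93 and 3.00 kb in JUN knockdown against 1.31 and 1.13 kb in Sen replicates 3 and 4. Its cover in Sen replicates 1 and 2 was 7.39 and 4.95 kb. Downward it was at rank 351 on chromosome 1 at 109117537 to 109143583, with 0.690 and 0.230 kb in JUN knockdown against 2.41 and 2.12 kb in Sen replicates 3 and 4, followed by rank 288 on chromosome 3 at 180126139 to 180152232, with 0.256 and 0 kb against 2.31 and 1.20 kb. Rank 97 held 6 p-c-JUN regions of Sen cells, rank 351 held 2 and rank 288 held 3. Sorted by p-c-JUN content, the ratio of mean list shares, JUN knockdown over Sen replicates 3 and 4, was 0.809 in the 58 domains with up to 2 p-c-JUN regions, 0.755 with 3 or 4, 0.726 with 5 to 7 and 0.7095 in the 39 with 8 or more. Sorted by FOXF1 content it was 0.726 with none, 0.762 with 1, 0.728 with 2 or 3 and 0.780 with 4 or more. The ratios by p-c-JUN content rest on the second JUN knockdown library: without it they were 0.755, 0.721, 0.729 and 0.782, with no one direction. Without Sen replicate 3 they were 0.815, 0.733, 0.706 and 0.727. None of these ratios carries a test.

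After knockdown of p300 and CBP few peaks of any kind were called, and the same was true of the control of that experiment. A peak lay in 166 and 85 domains in sip300/CBP libraries, against 255 and 66 in their Sen control. The share of list cover in the domains was 5.02% and 5.60% in sip300/CBP libraries, against 4.31% and 3.44% in the control. The difference of 1.43 ± 0.521 points (SE, n = 2 and 2) had an exact two-sided permutation p of 0.333, the smallest possible, and the knockdown libraries had the larger share. As deposited, cover was higher in both knockdown libraries in 24 domains (4.8%) and lower in 22 (4.4%), beside 3.47% and 6.7% of the 8295 stitches with a peak in any of the 4 lists, and 3.12% and 11.9% of the next 500 that had one. Such a peak lay in 361 domains and in 320 of the next 500 stitches. The percentages of domains, here and in the next sentence, divide by all 500. Those of the stitches divide only by stitches with a peak, so the bases are unlike and the domain percentages are the lower for it. Relative to each list the counts were 37 (7.4%) and 21 (4.2%), beside 4.61% and 6.02% of all and 5.31% and 9.69% of the next 500. Upward the leading domain was rank 441 on chromosome 4 at 77673496 to 77704397, with 0.706 and 0.582 kb in sip300/CBP libraries and no peak in the control, then rank 109 on chromosome 6 at 30715268 to 30761930, with 1.40 and 0.721 kb and again none in the control. Downward it was rank 292 on chromosome 1 at 8557265 to 8587726, with no peak in sip300/CBP libraries and 0.580 and 0.818 kb in the control. Each of these domains had at least 3.865 kb of cover in both Sen replicates 1 and 2. At this list length, most domains had little or no cover in either group.

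**Figure D4:**
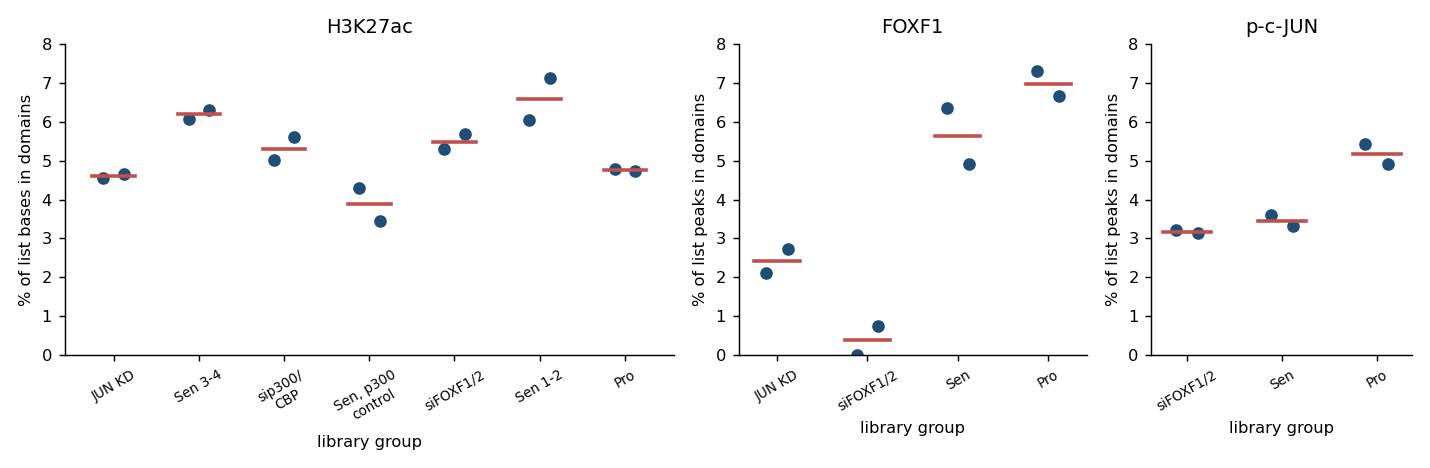
Share of each list inside the 500 domains, as % of covered bases for H3K27ac (left) and as % of peaks for FOXF1 (centre) and p-c-JUN (right); points are libraries and lines are means of 2 libraries. H3K27ac shares are 4.55% and 4.66% after JUN knockdown (JUN KD) against 6.08% and 6.31% in Sen 3-4, and FOXF1 shares are 0% and 0.752% after siFOXF1/2 against 6.37% and 4.90% in Sen libraries.

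Both factors were found in most of the domains of Sen cells. Of the 500 domains, 497 held p-c-JUN in Sen cells (a region with a peak in both lists) and 413 (82.6%) held FOXF1. Of the next 500 stitches 99% held p-c-JUN and 68% FOXF1, and of all other stitches 66.8% and 23.1%. In the domains both were present in 412, p-c-JUN alone in 85, FOXF1 alone in 1 and neither in 2. The domains held 2319 p-c-JUN regions, with a median of 4 and up to 16 per domain, and 786 FOXF1 regions, with a median of 1 and up to 8. These were 3.91% of all 59367 p-c-JUN regions and 6.96% of all 11287 FOXF1 regions.

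Relative to length, the domains held no more p-c-JUN than other stitches on most scales. Counted over the whole span, gaps included, there were 68.7 p-c-JUN regions per 100 kb of acetylated sequence in the domains, against 66.6 in the next 500 stitches and 66.4 in all other stitches. For FOXF1 there were 23.3 in the domains, against 22.4 and 18.5. Counting only factor regions that overlapped acetylated sequence, p-c-JUN gave 56.4 in the domains, against 57.0 and 61.9, and FOXF1 gave 21.0, against 20.6 and 17.9. Per 100 kb of span p-c-JUN gave 11.5 in the domains, against 11.8 and 22.0, and FOXF1 gave 3.91, against 3.97 and 6.13, so the order against all other stitches depends on the scale for both factors. Gained p-c-JUN regions numbered 806 in 390 domains, or 23.9 per 100 kb, against 22.5 in the next 500 stitches and 24.1 in all other stitches. Of the p-c-JUN regions in domains, 82.1% overlapped one of the acetylated regions, as did 90.3% of the FOXF1 regions. The share was 71.8% for gained p-c-JUN regions. Factor regions that overlapped none lay in the gaps between acetylated regions. In the same order the shares were 85.6%, 91.8% and 78.5% in the next 500 stitches, and 93.2%, 96.5% and 90.5% in all other stitches. Of those other stitches 67.2% consisted of 1 region and had no gaps.

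**Figure D5:**
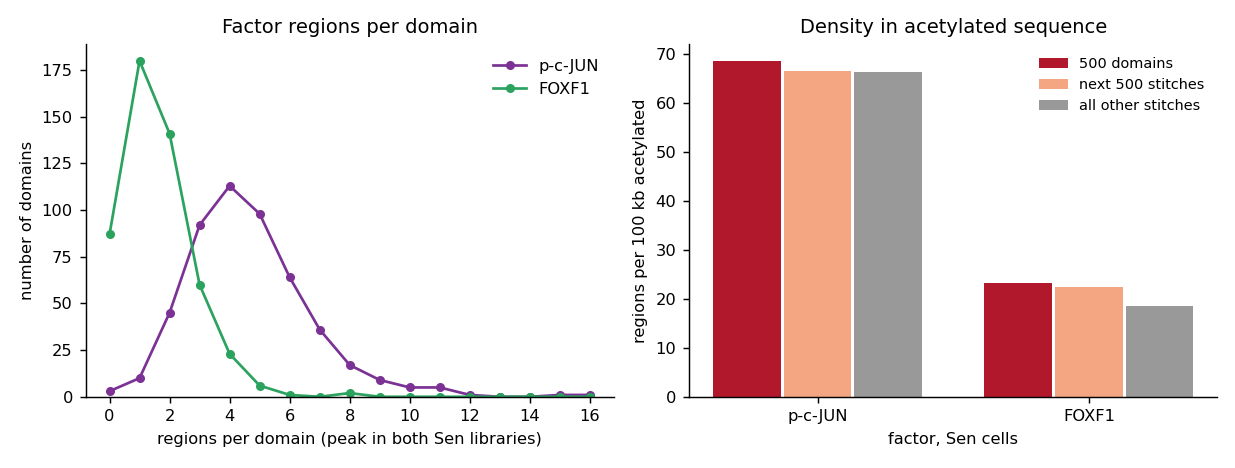
Left, number of domains (vertical axis) by how many p-c-JUN or FOXF1 regions of Sen cells each holds. Right, regions over the whole span, per 100 kb of acetylated sequence, in the 500 domains, in the next 500 stitches and in all other stitches, where p-c-JUN stands at 68.7, 66.6 and 66.4 and FOXF1 at 23.3, 22.4 and 18.5.

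FOXF1 regions mostly coincided with p-c-JUN, in the domains as in other stitches, while most p-c-JUN regions did not coincide with FOXF1. Of the 786 FOXF1 regions, 631 (80.3%) coincided with p-c-JUN in Sen cells, close to the 78.6% in the next 500 stitches and the 80.2% in all other stitches, and above the 57.9% outside stitches. In the other direction, 27.0% of the p-c-JUN regions in domains overlapped a FOXF1 region. The share was close to this in the next 500 stitches, at 26.7%, and was 22.6% in stitches beyond rank 1000. Where a factor peak fell on an acetylated region, its summit lay a median of 165 to 197.5 bp from the nearest H3K27ac summit, over 4 factor lists and 2 H3K27ac lists, against 148 to 169 bp elsewhere.

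The largest domains were among those richest in FOXF1 and p-c-JUN. Most FOXF1 regions, 8 each, were in rank 2 on chromosome 8 and rank 3 on chromosome 2, followed by 6 in rank 67 on chromosome 7 at 17551730 to 17605586 and 5 each in rank 1, rank 19 on chromosome 14 at 51988350 to 52030686 and 4 smaller domains, ranks 21, 114, 133 and 375. Most p-c-JUN regions were in rank 3 with 16 and rank 2 with 15, followed by rank 5 with 12 and ranks 1, 6, 9, 20 and 45 with 11 each. Rank 2 had 9 and 14 FOXF1 peaks in Sen libraries, against 0 and 2 in Pro libraries, the largest such gap of the 500. Its p-c-JUN peaks numbered 15 and 17 in siFOXF1/2 libraries, 15 and 18 in Sen libraries, and 7 and 10 in Pro libraries.

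In Sen cells more FOXF1 peaks were called in the domains than in Pro cells, but not as a share of the lists. The domains held 866 and 1988 FOXF1 peaks in Sen libraries, against 251 and 736 in Pro libraries, which was 6.37% and 4.90% of the Sen lists against 7.29% and 6.65% of the Pro lists. The difference in share of −1.34 ± 0.798 points (SE, n = 2 and 2) had an exact two-sided permutation p of 0.333, the smallest possible. Peak number was higher in both Sen libraries in 200 domains and lower in 2, beside 20.5% and 0.283% of all stitches with a peak and 34.2% and 0% of the next 500 stitches. Scaled to each list it was higher in 96 and lower in 113, beside 17.8% and 9.69% of all and 20.7% and 20.4% of the next 500 stitches, so the direction depends on the scale. With lists cut to equal length the difference in share turned to 0.639 points, and at a −log10 q of at least 5 it was −0.167 points. Of the 786 FOXF1 regions in domains, 352 (44.8%) had no peak in either Pro list, 269 (34.2%) a peak in 1 and 165 (21.0%) a peak in both. The share with no Pro peak was 43.1% in the next 500 stitches, 49.6% in all other stitches and 62.9% outside stitches.

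Rank 77 on chromosome 6 at 139613278 to 139664497 had 4 and 7 FOXF1 peaks in Sen libraries and none in Pro libraries, and rank 59 on chromosome 17 at 59326900 to 59372606 had 3 and 3 and none. At rank 1 the counts were 7 and 8, against 4 and 3, and at rank 10 they were 4 and 7, against 1 and 1. The 2 domains with fewer FOXF1 peaks in Sen libraries were rank 76 on chromosome 5 at 42984510 to 43020640, with none against 1 and 1 in Pro libraries, and rank 238 on chromosome 15 at 59458122 to 59493116, with 1 and 1 against 2 and 2.

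After siFOXF1/2, FOXF1 peaks were nearly absent from the domains. The lists of 186 and 133 peaks had 0 and 1 in the domains, or 0% and 0.752%, against 6.37% and 4.90% of the Sen lists. The difference of −5.26 ± 0.822 points (SE, n = 2 and 2) had an exact two-sided permutation p of 0.333, the smallest possible. Peak number was lower in both siFOXF1/2 libraries in 422 domains (84.4%) and higher in 0, beside 42.6% and 0.0351% of all stitches with a peak and 75% and 0% of the next 500 stitches. This count depends on the shortness of these lists: with lists cut to equal length it was 0.6% of domains, while the difference in share was −5.26 points. The lone peak lay in rank 12 on chromosome 7 at 116065487 to 116164380, which had 1 and 7 FOXF1 peaks in Sen libraries and 0 and 2 in Pro libraries. These 2 FOXF1 lists had another peak name prefix than the rest and a narrowest peak of 76 bp, and the part of this in the short lists was not tested.

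JUN knockdown lists likewise held few FOXF1 peaks in the domains, 8 and 24, or 2.12% and 2.72% of the lists, against 6.37% and 4.90% in Sen libraries of the first deposit. The difference of −3.22 ± 0.791 points (SE, n = 2 and 2) had an exact two-sided permutation p of 0.333, the smallest possible, and knockdown and deposit cannot be told apart. With domains built from all 4 Sen H3K27ac libraries the difference was −0.106 points (exact permutation p = 1). Peak number was lower in both JUN knockdown libraries in 411 domains (82.2%) and higher in 0, beside 41.2% and 0.0116% of all stitches with a peak and 73.8% and 0% of the next 500 stitches. With lists cut to equal length the count was 3.4% of domains. No domain had a FOXF1 peak in both JUN knockdown libraries and 30 had one in either. Ranks 2, 3, 1, 67 and 133 had the widest gaps to Sen libraries after both knockdowns, which share those Sen libraries. None of these 5 had a FOXF1 peak in any of the 4 knockdown libraries, while rank 3 had 8 and 14 in Sen libraries and 1 and 6 in Pro libraries. The knockdown lists had only 0 and 1 (siFOXF1/2) and 8 and 24 peaks (JUN knockdown) in all 500 domains. With lists this short, the absence and the shared names follow largely from the Sen counts by which the 5 were chosen.

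Phosphorylated c-JUN peaks in the domains were more numerous in Sen than in Pro cells. They numbered 2519 and 3100 in Sen libraries, against 1345 and 1578 in Pro libraries, and were higher in both Sen libraries in 376 domains (75.2%) and lower in 0, beside 35.9% and 0.207% of all stitches with a peak and 62.8% of the next 500 stitches that were higher. As a share of the lists the order was the reverse, 3.59% and 3.32% in Sen libraries against 5.42% and 4.91% in Pro libraries. The difference of −1.71 ± 0.290 points (SE, n = 2 and 2) had an exact two-sided permutation p of 0.333, the smallest possible, and the values did not overlap. With lists cut to equal length it was −0.417 points, and as a share of the peaks inside stitches −0.400 points. Scaled to each whole list, 43 domains were higher and 282 lower, beside 23.8% and 39.5% of all and 14.4% and 53.2% of the next 500. Of the 29856 gained p-c-JUN regions 2.70% lay in the domains, and of the 20315 found in Pro cells 5.66%.

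The widest gap was at rank 3, with 18 and 20 p-c-JUN peaks in Sen libraries against 8 and 7 in Pro libraries. Rank 20 on chromosome 20 at 52507374 to 52566862 had 12 and 13, against 4 and 4, and rank 27 on chromosome 5 at 131748332 to 131795191 had 11 and 11, against 4 and 4. Rank 51 on chromosome 2 at 161765856 to 161827339 had 8 and 10, against 1 and 1, and 7 of its 8 p-c-JUN regions were gained. Rank 4 had 10 and 14, against 4 and 3.

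After siFOXF1/2 the p-c-JUN peaks of the domains were mostly kept. They numbered 2407 and 2700 in siFOXF1/2 libraries, against 2519 and 3100 in Sen libraries, which was 3.21% and 3.14% of the lists against 3.59% and 3.32%. The difference of −0.281 ± 0.141 points (SE, n = 2 and 2) had an exact two-sided permutation p of 0.333, the smallest possible, and it turned to 0.0354 points as a share of the peaks inside stitches. Peak number was lower in both siFOXF1/2 libraries in 90 domains (18.0%) and higher in 16 (3.2%), beside 6.4% and 2.05% of all stitches with a peak and 8% and 3.2% of the next 500 stitches. As a share of each list it was lower in 169 (33.8%) and higher in 44 (8.8%), beside 12.5% and 6.72% of all and 25.6% and 8% of the next 500 stitches.

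Rank 3 had 16 and 15 p-c-JUN peaks in siFOXF1/2 libraries, against 18 and 20 in Sen libraries, rank 20 had 10 and 10, against 12 and 13, and rank 27 had 8 and 9, against 11 and 11. These domains are also named above against Pro cells, and both comparisons share the Sen libraries. Upward, rank 68 on chromosome 17 at 57823976 to 57874317 had 7 and 7 in siFOXF1/2 libraries, against 5 and 5, and rank 151 had 7 and 7, against 3 and 5. Of the 627 p-c-JUN regions in domains that overlapped a FOXF1 region, 12.3% and 7.496% had no peak in the siFOXF1/2 libraries. Of the 1692 that did not, 17.2% and 11.1% had none, higher in both libraries. In stitches beyond rank 1000 the shares were 14.5% and 8.15% with a FOXF1 region and 15.1% and 9.91% without. These shares carry no test and make no allowance for peak strength.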

How the data were processed

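The deposited files were narrowPeak lists from 14 H3K27ac, 8 FOXF1 and 6 p-c-JUN CUT&RUN libraries. Bowtie2 2.3.4.1, SAMtools 1.9, deepTools 3.1.1, MACS2 3.0.0 and build hg19 appear with no parameters per the submitters' processing notes. Use of the spike-in or of a control library is not given in these sources. Each deposited peak carries a display score, a fold enrichment (a ratio) at its summit and −log10 p and q values. Apart from the fold, −log10 q and −log10 p, only positions were used. The −log10 p only broke ties in −log10 q when lists were cut to equal length.

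Peaks outside chromosomes 1 to 22 and X were left out (475 of 1123812). H3K27ac was measured as bases covered by peaks over a domain's span, the factors as peaks overlapping it by at least 1 bp. Shares of lists were compared by exact permutation over libraries in 9 of 11 comparisons; the other 2 set siFOXF1/2 and Pro libraries against the lists that chose the domains. Adjustment over the 9 equal p-values leaves them at 0.333. A domain counted as higher or lower where both libraries of one group exceeded both of the other, and the gap is between their nearest values, for H3K27ac as % of the domain's summed length. Named domains are the 10 largest, 3 on each side of the threshold, the 5 with most regions of each factor, and those with the widest gaps, up to 5 per direction. Code was tested on simulated domains (Python 3.11.15, numpy 2.4.6, pandas 2.3.3, scipy 1.17.1). The domains, lists and tests were chosen with earlier results of these data known. Gene lists were drawn up but not run and no sequence is shown, because no hg19 genome or annotation was used.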

Additional observations from a re-analysis of the deposited data

How the results depend on the processing

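Of 383 values recomputed under alternative settings, 5 turned direction and 82 moved past a set limit, 1.5 times for a count and 1 SD for a difference without a test. The other 296 include tested share differences, which were held to direction alone and in places shrank greatly. The domains themselves depended on the rule: 155 of 500 (31.0%) built with a gap of 5 kb overlapped a main domain, 258 (51.6%) with a gap of 25 kb, 172 (34.4%) from all 4 Sen libraries and 339 (67.8%) when ranked by span. The lists of the sip300/CBP experiment were the shortest of the H3K27ac lists; read depth is unknown. Over all settings other than leaving out a library, H3K27ac share differences ran from −2.70 to −0.346 for JUN knockdown and 0.382 to 2.69 for sip300/CBP. They ran from 0.198 to 1.16 for siFOXF1/2 against Pro and −0.467 to 3.32 for Sen replicates 3 and 4 against Pro. The FOXF1 ranges were −2.29 to 0.639 for Sen against Pro, −10.3 to −2.44 after siFOXF1/2 and −6.44 to −0.106 after JUN knockdown. For p-c-JUN they were −2.80 to −0.400 for Sen against Pro and −0.462 to 0.0354 for siFOXF1/2 against Sen. The ends −0.346, 2.69, 0.198 and −0.467 are differences in the share of stitch cover, not of the list. Likewise −0.400 and 0.0354 are differences in the share of peaks inside stitches. Values below are % of domains higher or lower in the group named first, or share differences in percentage points, of the list unless another share is named.

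With lists of equal length, the FOXF1 share of Sen against Pro turned to 0.639, with 8.2% higher and 7.0% lower; p-c-JUN in Sen against Pro was 9.6% higher and 17.2% lower. There, JUN knockdown against Sen was 11.6% higher and 20.0% lower, siFOXF1/2 against Sen 4.6% and 22.4%, Sen replicates 3 and 4 against Pro 6.8% and 59.4%. Lower counts were 1.4% for sip300/CBP, and for FOXF1 0.6% after siFOXF1/2 and 3.4% after JUN knockdown.

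Both share settings were added after seeing the data. As a share of stitch cover, differences turned to −0.467 for Sen replicates 3 and 4 against Pro, 0.785 for siFOXF1/2 against Sen, −0.587 for Sen against Pro and 0.0354 for p-c-JUN in siFOXF1/2 against Sen. As a share of each list, Sen against Pro was 78.6% higher and 1.2% lower, Sen replicates 3 and 4 against Pro 52.4% and 15.8%, siFOXF1/2 against Pro 54.0% and 12.6%, FOXF1 in Sen against Pro 19.2% and 22.6%, p-c-JUN in Sen against Pro 8.6% and 56.4%, and p-c-JUN in siFOXF1/2 against Sen 8.8% and 33.8%. On that scale JUN knockdown was 45.8% lower, siFOXF1/2 against Sen 47.8% lower and sip300/CBP 7.4% higher.

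At a −log10 q of at least 5, Sen against Pro was 10.0% higher, sip300/CBP 0.2% higher and 0.2% lower, Sen replicates 3 and 4 against Pro 0.4% higher, JUN knockdown 2.2% lower, siFOXF1/2 against Sen 6.8% lower and FOXF1 in Sen against Pro 0% lower. With domains from all 4 Sen libraries, shares were −0.532 for siFOXF1/2 against Sen and 1.07 for Sen against Pro. JUN knockdown was then 3.0% higher and 10.8% lower, Sen replicates 3 and 4 against Pro 3.4% higher, siFOXF1/2 against Sen 7.2% higher, FOXF1 in Sen against Pro 0.2% lower, p-c-JUN in Sen against Pro 44.0% higher and 0.4% lower, and p-c-JUN in siFOXF1/2 against Sen 11.0% lower. With the largest 1000, shares were −1.91 for siFOXF1/2 against Sen and 3.08 for Sen against Pro, JUN knockdown was 3.3% lower and FOXF1 in Sen against Pro 0.2% lower. With the largest 250, the share of Sen against Pro was 1.06, FOXF1 in Sen against Pro 0.8% lower, siFOXF1/2 against Sen 1.6% higher and Sen replicates 3 and 4 against Pro 0% higher. Ranked by span, siFOXF1/2 against Sen was 4.2% higher and Sen replicates 3 and 4 against Pro 0% higher.

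With a gap of 25 kb, JUN knockdown was 1.8% higher and 0.6% lower, sip300/CBP 13.6% lower, siFOXF1/2 against Pro 14.4% higher, siFOXF1/2 against Sen 0.8% higher and 7.6% lower, Sen against Pro 12.2% higher and 13.4% lower with a share of 2.63, Sen replicates 3 and 4 against Pro 0% higher and FOXF1 in Sen against Pro 0% lower. With a gap of 5 kb, JUN knockdown was 9.4% lower, sip300/CBP 2.4% lower, Sen replicates 3 and 4 against Pro 1.2% higher, siFOXF1/2 against Sen 1.4% higher, and Sen against Pro 2.8% lower with a share of 0.972. FOXF1 in Sen against Pro was 24.8% higher and 0% lower, p-c-JUN in Sen against Pro 35.6% higher and 0.4% lower, and p-c-JUN in siFOXF1/2 against Sen 1.2% higher and 9.4% lower. The cause was not tested for any of these.

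Same-numbered libraries shared only a number; their deviations correlated by −0.0336 to 0.194 over the domains. With the replicate number as a block, FOXF1 in Sen against Pro was 62.4% higher, siFOXF1/2 against Sen 16.6% higher and 40.6% lower, and p-c-JUN in siFOXF1/2 against Sen 6.8% higher. The other counts and all share differences stayed near the main values, and JUN knockdown and Sen replicates 3 and 4 share no numbers.

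Leaving out 1 library at a time kept every direction of the share differences: −1.71 to −1.47 for JUN knockdown, 1.00 to 1.87 for sip300/CBP, 0.537 to 0.924 for siFOXF1/2 against Pro, −1.63 to −0.570 for siFOXF1/2 against Sen, 1.32 to 1.56 for Sen replicates 3 and 4 against Pro, and 1.3 to 2.36 for Sen against Pro. For FOXF1 the ranges were −2.07 to −0.608 for Sen against Pro, −5.99 to −4.53 for siFOXF1/2 and −3.95 to −2.49 for JUN knockdown, and for p-c-JUN −1.97 to −1.46 for Sen against Pro and −0.417 to −0.145 for siFOXF1/2 against Sen.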

Other observations

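H3K27ac peaks inside the domains were not stronger than others by the authors' fold enrichment at the summit. In Sen replicates 1 and 2 the median fold was 3.58 and 3.38 inside the domains, against 3.83 and 3.81 outside, and it was lower inside in all 14 H3K27ac lists. In the p-c-JUN lists the order was the other way round, with 6.33 and 6.33 inside the domains, against 5.94 and 5.81 outside, in Sen libraries, and higher medians inside in all 6 lists. Both are descriptions of each list's own values, with no test.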
